A study of Homo sapiens with 6 samples.

Results

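Immune checkpoint ligands are surface or secreted proteins through which a cell restrains or stimulates T cells, NK cells and phagocytes, and the set described here holds 10 of the 20289 genes of the table. The members are CD274, PDCD1LG2, CD276, VTCN1, CD80, ICOSLG, PVR, NECTIN2, CD47 and LGALS9, taken as the rows that carry these symbols. RNA was sequenced from 6 libraries labelled as T24, an established human bladder cancer cell line, grown in RPMI medium with fetal bovine serum and transfected by lipofection. In 3 libraries the pcDNA3.1 plasmid is labelled as carrying LINC00665, a long non-coding RNA, for overexpression, and in 3 it is labelled as Vector, the control. The comparison was made to profile expression after LINC00665 overexpression.

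CD274 encodes PD-L1 and PDCD1LG2 encodes PD-L2, the ligands of the inhibitory T cell receptor PD-1. Tumour cells commonly make PD-L1 after interferon gamma has activated the JAK and STAT kinase cascade and the transcription factor IRF1, and antibodies against PD-1 and PD-L1 are in clinical use in urothelial cancer. PVR and NECTIN2 bind the inhibitory receptor TIGIT, CD47 binds SIRP-alpha on phagocytes, and the remaining members belong to the B7 family or, for LGALS9, to the galectins.

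The expected counts summed to between 19114096 and 22725687 in the libraries labelled LINC00665 and between 17289788 and 20023417 in those labelled Vector. Of the 6 libraries, 3 went against the cell line on their labels when identity was checked. Groups are therefore named by label throughout, line and plasmid cannot be told apart, and with those libraries removed nothing would remain to compare. The table holds 0 rows for LINC00665, so the overexpression itself was not checked. Basal and luminal urothelial markers summed to 11200 to 13400 CPM (counts scaled to library size) under the LINC00665 label. Under the Vector label they summed to 1040 to 3210 CPM, most of it from KRT8 and KRT18 at 837 and 1000 CPM. Of 18 tested, 17 were higher under the LINC00665 label, against 34.2% of all genes tested, and KRT18 did not pass (edgeR adjusted p = 0.1). Several had few counts under the Vector label, such as KRT14 and GRHL3 with 0 and TP63 with 5. Those passed the filter on low counts only by their level under the LINC00665 label, which ties their direction to it. UPK1A, not tested, had 2 counts under the LINC00665 label and 33 under the Vector label. TP63, the regulator of basal epithelium, stood at 110 ± 13.5 CPM under the LINC00665 label and at 0.0871 ± 0.0352 CPM under the Vector label (SD, n = 3 each). Renal tubule markers ran the other way as sums, at 34.1 to 36.1 CPM under the LINC00665 label and 381 to 545 CPM under the Vector label. Of 19, 7 had 0 counts in each label and 13 were not tested. Of the 6 tested, 5 were lower and 1 higher, against 29.3% and 34.2% of all genes tested. The higher one was LHX1, at 18.5 ± 1.37 CPM under the LINC00665 label and 0.337 ± 0.336 CPM under the Vector label. Lower ones such as KCNJ16, with 2 counts under the LINC00665 label, passed the filter on low counts only by their Vector level. Leukocyte markers, defining genes of the cells that make CD80 and PD-L2 in tissue, summed to 27.7 to 39.6 CPM and to 11.6 to 18.6 CPM in the same order, and 9 of 17 had 0 counts in each label. PTPRC, the common leukocyte antigen, had 0 counts under the LINC00665 label and 1 count under the Vector label. Of the 4 tested leukocyte markers, 3 were higher, against 34.2% of all genes tested. They were the myeloid genes CD14 (304 counts under the LINC00665 label and 16 under the Vector label), CSF1R (65 and 0) and CD68 (1444 and 811). CD14 and CSF1R passed the filter on low counts only by their level under the LINC00665 label. CD8A (47 and 66 counts) did not pass the threshold (edgeR adjusted p = 0.34). Of the untested myeloid markers, ITGAM had 5 and 10 counts, CD163 0 and 1, and ITGAX and LYZ 0 in each label. These single markers were picked after their values were seen, and their part in the ligands' levels was not tested.

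Of the 10 ligands, 6 were higher under the LINC00665 label and 0 were lower by edgeR's quasi-likelihood test at an adjusted p of 0.05. CD276 and ICOSLG did not pass the threshold, and VTCN1 and CD80 had too few counts to be tested. Over all 13552 genes tested, 34.2% were higher, 29.3% were lower and 63.5% were called in either direction, so a call in these libraries is common. The balance turned with the scaling, to 4174 genes higher and 4770 lower with total-count scaling. The median log2 fold change over all genes tested was 0.03 and the median absolute value was 0.82. The 6 ligands fell into 2 kinds. CD274, PDCD1LG2 and LGALS9 were at or near 0 under the Vector label and passed the filter on low counts only by their level under the LINC00665 label, which ties their direction to that filter. PVR, NECTIN2 and CD47 passed it under both labels and differed by 1.92 to 2.91 times. In bulk RNA, fewer cells that make a transcript and less of it per cell cannot be told apart.

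**Figure D1:**
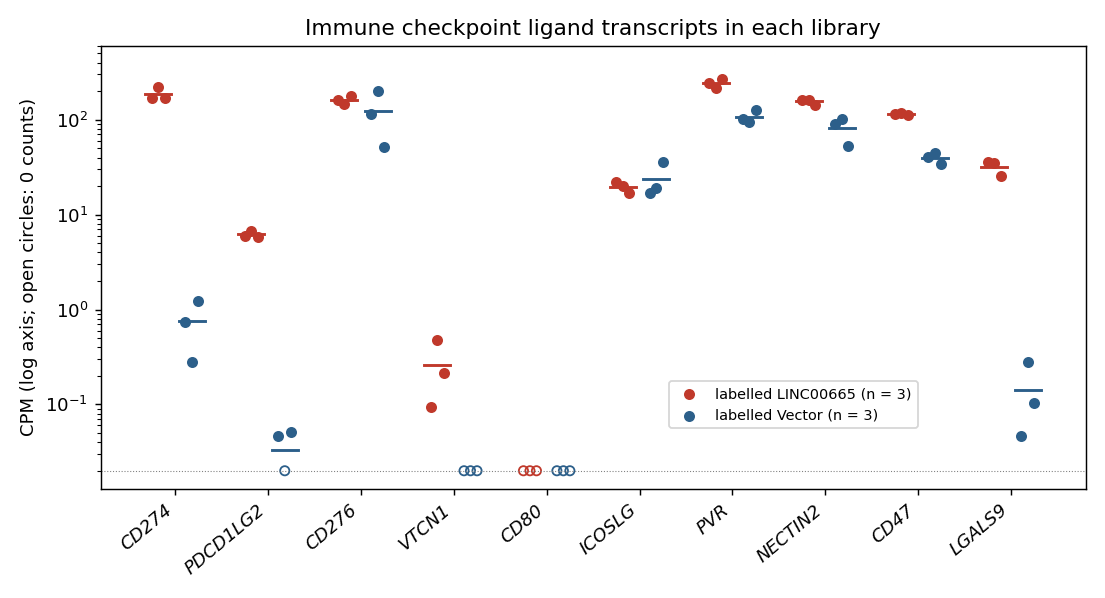
CPM of the 10 ligand genes in each library on a log axis, with libraries labelled LINC00665 in red to the left of those labelled Vector in blue; lines are means of 3 and open circles on the dotted line stand for 0 counts. The libraries of the labels do not overlap for CD274, PDCD1LG2, VTCN1, PVR, NECTIN2, CD47 and LGALS9, and overlap for CD276 and ICOSLG.

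Both PD-1 ligands were higher under the LINC00665 label. CD274 stood at 170, 221 and 168 CPM in the libraries labelled LINC00665, against 0.746, 0.278 and 1.24 CPM in those labelled Vector. These values rest on 10994 counts under the LINC00665 label and 45 counts under the Vector label. Every library of the LINC00665 label was far above every library of the Vector label. The log2 fold change was 7.92 (SE 0.41, edgeR adjusted p = 1.4e-06), a ratio of 243. Of all genes tested, 4.41% had a log2 fold change at least as large as that of CD274.

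PDCD1LG2 had 128, 128 and 109 counts in the libraries labelled LINC00665, or 5.95, 6.72 and 5.87 CPM, against 1, 0 and 1 counts in those labelled Vector. Its ratio of 182 therefore carries a 95% counting interval of 49.9 to 1500. The fitted log2 fold change was 7.26 (SE 0.47, edgeR adjusted p = 4.5e-06). Per length, PD-L1 transcripts exceeded PD-L2 transcripts by 19.1, 22 and 19.2 times in the 3 libraries labelled LINC00665, on the authors' FPKM values. Under the Vector label the same ratio rests on at most 1 PDCD1LG2 count a library and is not read.

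These genes are neighbours on the plus strand of chromosome 9 (GRCh38, GENCODE v29), CD274 at 5450503 to 5470566 and PDCD1LG2 at 5510570 to 5571254, with 40 kb between them. Genes whose starts lie within 500 kb of the CD274 start were set beside them; apart from JAK2 this set was chosen after the members' values were seen. JAK2, a kinase of the interferon gamma receptor, stood at 10.4, 9.04 and 10.7 CPM under the LINC00665 label, against 5.87, 7.11 and 2.54 CPM under the Vector label. The libraries did not overlap and its log2 fold change was 0.96 (SE 0.35, edgeR adjusted p = 0.039). That call was lost under 6 of 15 alternatives, among them the fits without LINC00665 1, 2 or 3 (adjusted p = 0.094, 0.081 and 0.11) and without Vector 1 (0.069).

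PLGRKT, a plasminogen receptor gene that starts at -12.62 kb from the CD274 start, did not pass the threshold (log2 fold change 0.21, SE 0.19, edgeR adjusted p = 0.34). RIC1, at 178.5 kb, rose by 0.92 (SE 0.16) and ERMP1, at 382.6 kb, by 1.14 (SE 0.21) on the log2 scale, with edgeR adjusted p of 0.0011 and 0.0018. RLN2, the relaxin 2 gene, had 142 counts under the LINC00665 label and 0 under the Vector label, a ratio of 47.1 when set against 3 counts over the group. It passed the filter on low counts only by its level under the LINC00665 label. Its value is uncertain, since the neighbouring RLN1 is a near copy.

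**Figure D2:**
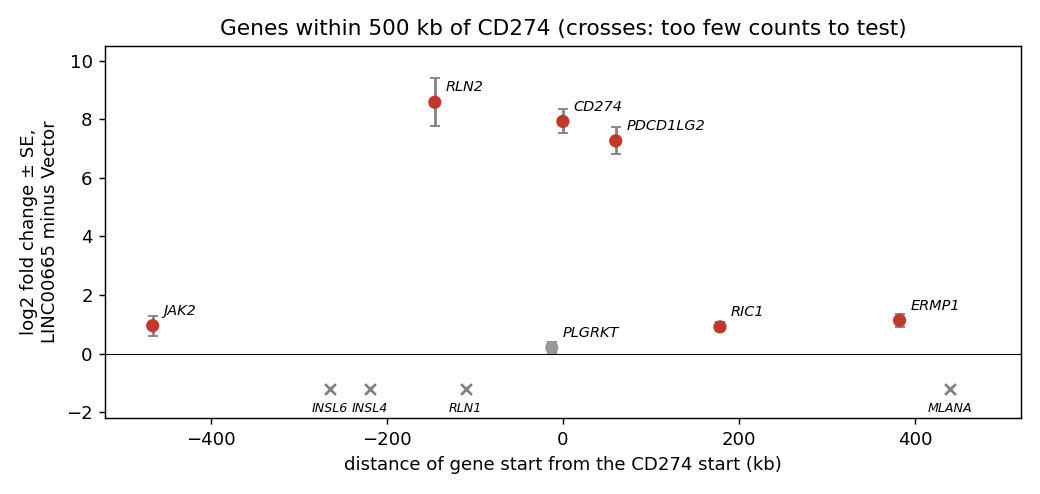
Fitted log2 fold change (LINC00665 minus Vector, ± SE) of genes within 500 kb of CD274 against the distance of their start from the CD274 start in kb; red points passed an adjusted p of 0.05, the grey point did not, and crosses mark genes with too few counts to test. CD274, PDCD1LG2 and RLN2 lie above 7 and the other 4 tested genes between 0.21 and 1.14; the point of RLN2 is no bound because its libraries labelled Vector had 0 counts.

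Promoter windows of 250 bases before the start were found for 9 of the 10 members in RefSeq (GRCh38.p14), and PDCD1LG2 is named only. They were searched on both strands for the interferon regulatory factor (IRF) pattern, GAAA and a further GAAA separated by any 2 bases, the STAT site pattern TTCNNNGAA, and the NF-kB pattern, GGG and TTTCC separated by any 2 bases. Over all 35116 promoter windows of this length, 3.02%, 6.57% and 1.73% held a match in that order. CD274 held 2 matches of the IRF pattern, which overlap each other and lie on the minus strand between 208 and 193 bases before the start, and 1 match of the STAT pattern between 125 and 117 bases before it. The windows of the other 8 members held 0 matches, which says only that these letters are not in them.

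Shown here are the window of CD274, the ligand with the only matches, of CD47, which was transcribed under both labels, and of CD80, which had 0 counts in every library. Capitals mark the matches, and bases inside an annotated exon are left out. The stretches are chr9:5450292-5450502 (plus strand), chr3:108091032-108091281 (minus strand) and chr3:119559615-119559864 (minus strand).
CD274: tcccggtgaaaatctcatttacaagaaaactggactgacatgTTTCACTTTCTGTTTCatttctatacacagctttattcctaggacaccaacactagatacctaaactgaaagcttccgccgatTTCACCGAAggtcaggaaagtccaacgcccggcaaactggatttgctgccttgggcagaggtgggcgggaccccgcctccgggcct
CD47: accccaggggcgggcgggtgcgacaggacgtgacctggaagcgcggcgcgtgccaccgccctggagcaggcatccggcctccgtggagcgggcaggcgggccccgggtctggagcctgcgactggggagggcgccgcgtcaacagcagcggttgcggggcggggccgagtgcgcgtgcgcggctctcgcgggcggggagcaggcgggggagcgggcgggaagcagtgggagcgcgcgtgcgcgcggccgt
CD80: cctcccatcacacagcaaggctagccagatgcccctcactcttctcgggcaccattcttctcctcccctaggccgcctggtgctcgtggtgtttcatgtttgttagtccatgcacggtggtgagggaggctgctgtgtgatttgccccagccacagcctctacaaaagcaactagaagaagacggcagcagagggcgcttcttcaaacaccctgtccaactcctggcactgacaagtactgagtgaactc
The ratio of observed to expected CpG was 0.863 in the 250 bases of CD274, 1.04 in those of CD47 and 0.312 in those of CD80, against a median of 0.558 over all promoters. LGALS9 had the lowest value of the 9 members with a window, 0.0603, but all 250 bases of its window lie in an annotated exon of GENCODE v29, after that annotation's start of the gene. The windows of CD47 and CD276 also lie after that annotation's starts of these genes. For CD47 that start is at 108091862, and its window holds 0 bases of an annotated exon.

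Of the other B7 family members of the set, CD276 and ICOSLG did not pass the threshold and VTCN1 and CD80 were not tested. CD276, or B7-H3, is widely present on solid tumours and its receptor is not settled. It stood at 162, 146 and 178 CPM under the LINC00665 label, against 116, 203 and 51.3 CPM under the Vector label. The libraries labelled LINC00665 lay close together, within the wider range of those labelled Vector, whose coefficient of variation was 61.5%. The log2 fold change was 0.39 with a 95% interval of -0.55 to 1.34 (edgeR adjusted p = 0.43). A single library decided this value. Without Vector 2 it was 0.95 and passed the threshold (edgeR adjusted p = 0.027), and without Vector 3 it was 0.02 (0.94).

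ICOSLG, the ligand of the T cell costimulator ICOS, stood at 22, 20 and 17.1 CPM under the LINC00665 label, against 17.1, 19 and 35.5 CPM under the Vector label. Vector 3 was above the other 5 libraries, which lay close together. Its log2 fold change was -0.28 with a 95% interval of -0.93 to 0.38 (edgeR adjusted p = 0.42), and 0.12 without Vector 3 (0.56). ICOSLG was the only member with fractional expected counts in every library, such as 473.5 in LINC00665 1, so its values are uncertain where reads may have been split between loci, which was not tested.

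VTCN1, or B7-H4, an inhibitory ligand of epithelial tumours, had 2, 9 and 4 counts in the libraries labelled LINC00665 and 0 in each of those labelled Vector. Set against 3 counts over the group, its 15 counts gave a ratio of 4.97, which leaves out their own counting error. Its level was 0.26 ± 0.194 CPM under the LINC00665 label (SD, n = 3). CD80, the ligand of CD28 and CTLA-4 on antigen-presenting cells, had 0 counts in all 6 libraries. At this depth a level of up to 0.0508 CPM under the LINC00665 label and 0.051 CPM under the Vector label would go undetected.

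The ligands of the TIGIT axis were abundant under both labels and higher under the LINC00665 label. PVR, the poliovirus receptor CD155, stood at 244, 218 and 270 CPM under the LINC00665 label, against 101, 95 and 128 CPM under the Vector label. Its lowest library of the LINC00665 label lay well above its highest of the Vector label, and its log2 fold change was 1.17 (SE 0.17, edgeR adjusted p = 0.00042). NECTIN2, or CD112, which also binds PVRIG and the activating receptor CD226, stood at 163, 162 and 143 CPM under the LINC00665 label, against 89.4, 102 and 52.3 CPM under the Vector label. Its libraries did not overlap either, though Vector 3 lay well below Vector 1 and Vector 2, and the log2 fold change was 0.94 (SE 0.24, edgeR adjusted p = 0.0085).

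Both genes lie on the plus strand of chromosome 19, PVR at 44643798 to 44663583 and NECTIN2 at 44846175 to 44889228, 182.6 kb apart. The FPKM ratio of PVR to NECTIN2 was 1.06, 0.985 and 1.34 under the LINC00665 label, against 0.696, 0.552 and 1.55 under the Vector label, so the ratio overlapped between the labels. Vector 3 had the highest PVR and the lowest NECTIN2 among the libraries labelled Vector.

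CD47, the signal that restrains phagocytosis, stood at 116, 119 and 113 CPM under the LINC00665 label, against 40.8, 44.3 and 34.3 CPM under the Vector label. It varied least of all members within both labels, with coefficients of variation of 2.49% and 12.8%. The log2 fold change was 1.54 (SE 0.15, edgeR adjusted p = 4.4e-05), a ratio of 2.91.

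LGALS9, or galectin-9, a secreted lectin that can bind the T cell receptor TIM-3, stood at 36, 34.9 and 25.6 CPM under the LINC00665 label, against 0.0466, 0.278 and 0.103 CPM under the Vector label. The Vector values rest on 1, 5 and 2 counts. The log2 fold change was 7.81 (SE 0.40, edgeR adjusted p = 1.4e-06) and was 8.65 without Vector 2, which held 5 of the 8 counts. Its near copies LGALS9B and LGALS9C had 0 to 4 and 1 to 16 counts in the libraries labelled LINC00665 and 0 in those labelled Vector, against 1915 counts of LGALS9 under the LINC00665 label and 8 under the Vector label.

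In a two-sided exact permutation test of single genes, the 7 members whose libraries did not overlap had p = 0.1, the smallest that 3 against 3 libraries can give, and CD276 and ICOSLG had p = 0.4 and 0.8. Over all genes tested the libraries did not overlap for 70.2%, with 37.9% higher and 32.3% lower under the LINC00665 label.

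**Figure D3:**
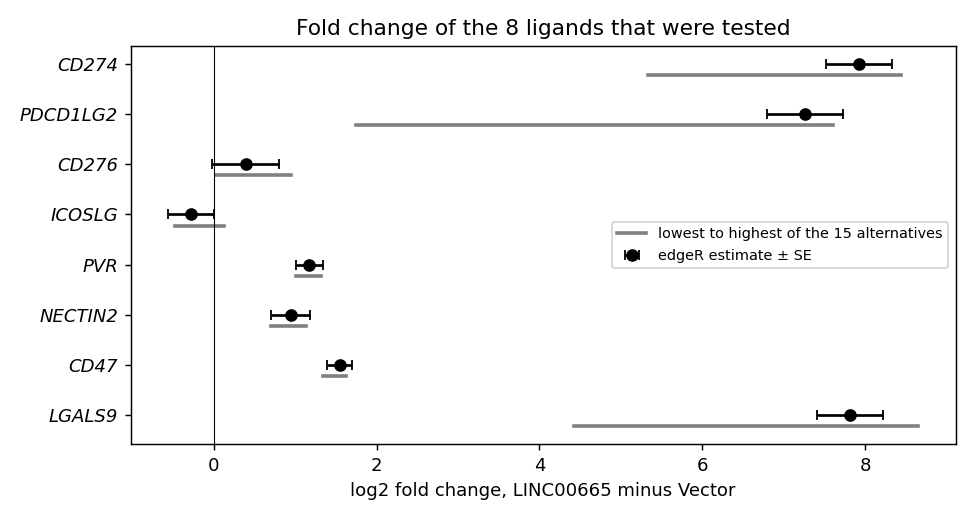
Log2 fold change (LINC00665 minus Vector) of the 8 tested ligands: points are edgeR estimates with SE, and grey lines run from the lowest to the highest value over 15 other settings. CD274, PDCD1LG2 and LGALS9 lie between 7.26 and 7.92, PVR, NECTIN2 and CD47 between 0.94 and 1.54, and only the lines of CD276 and ICOSLG come near or cross 0; the left ends of the longest lines come from adding 1 to FPKM.

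Levels of different ligands can be set side by side only per length, on the FPKM values. Under the LINC00665 label the order was PVR (76.6 ± 9.06 FPKM), NECTIN2 (68.4 ± 4.31), CD47 (53.5 ± 1.02), CD276 (48.7 ± 5.94), CD274 (48.4 ± 6.52), LGALS9 (23.3 ± 4.51), ICOSLG (3.31 ± 0.301), PDCD1LG2 (2.4 ± 0.122) and VTCN1 (0.0933 ± 0.0709), with CD80 at 0 (SD, n = 3). Libraries overlapped between PVR and NECTIN2, between CD47 and CD276, and between CD276 and CD274, and not between the other neighbours in that order. CD274 lay between the 90.4th and 92.3rd percentile of all genes in these libraries, a range in which CD47 at 92 to 92.2 also fell.

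Under the Vector label the order of mean levels was CD276 (43 ± 25.4 FPKM), NECTIN2 (41.9 ± 13.6), PVR (34.2 ± 6.4), CD47 (20.6 ± 0.786) and ICOSLG (3.8 ± 1.56), and the others were at most 0.223 FPKM. The libraries of the 3 most abundant overlapped, so their order is not resolved. The 10 ligands together summed to 329.5, 316 and 328.7 FPKM under the LINC00665 label, against 142.7, 175.4 and 113.6 FPKM under the Vector label. CD274 made up 14.9% of the mean sum under the LINC00665 label and 0.155% under the Vector label, whereas CD276 made up 15% and 29.9%.

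**Figure D4:**
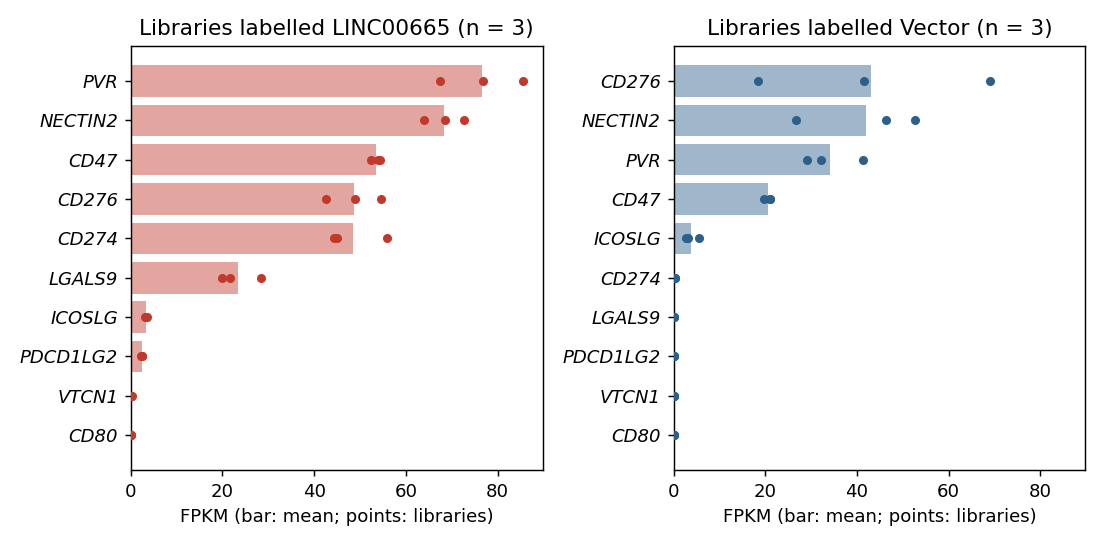
FPKM of the 10 ligands in order of their mean under each label, with bars for means and points for the 3 libraries. CD274 is at position 5 under the LINC00665 label with 48.4 FPKM and at position 6 under the Vector label with 0.223 FPKM, and the points of CD276 under the Vector label are spread from 18.38 to 69.08 FPKM.

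Genes known to control PD-L1 or CD47 moved in both directions. Of 24 tested, 12 were higher, 5 lower and 7 not past the threshold by edgeR, beside 34.2% higher and 29.3% lower over all genes tested. The median log2 fold change was 0.54. B3GNT3, a glycosyltransferase reported to glycosylate PD-L1, stood at 49.2 ± 1.31 CPM under the LINC00665 label against a total of 3 counts under the Vector label, a ratio of 964 (95% counting interval 330 to 4680). B3GNT3 passed the filter on low counts only by its level under the LINC00665 label, which ties its direction to it. MYC, a transcription factor, rose to 472 ± 41.4 CPM under the LINC00665 label, against 119 ± 34.7 CPM under the Vector label. The interferon gamma receptor chain IFNGR1 rose to 54 ± 6.77 CPM, against 25.5 ± 1.76 CPM (log2 fold change 1.08, SE 0.15, adjusted p = 4e-04).

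IRF1, a member of the IRF family, was chosen after its values were seen and stood at 265 ± 117 CPM under the LINC00665 label, against 37.2 ± 23.9 CPM under the Vector label. Its log2 fold change was 2.83 (SE 0.57, edgeR adjusted p = 0.0026).

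The 5 genes that fell were CMTM4, CMTM6, JAK1, COPS5 and STUB1; all but CMTM4 are named after their values were seen. CMTM6 and CMTM4 protect PD-L1 protein from degradation, and CMTM4 fell to 31.2 ± 3.11 CPM under the LINC00665 label, against 159 ± 20.8 CPM under the Vector label (log2 fold change -2.35, SE 0.16, adjusted p = 7.3e-06). CMTM6 fell to 74.5 ± 6.61 CPM, against 100 ± 13.7 CPM under the Vector label (log2 fold change -0.42, SE 0.16, adjusted p = 0.042). The calls of CMTM6, JAK1 and STUB1 were each lost without at least 1 single library, with adjusted p up to 0.12, 0.078 and 0.15. Without LINC00665 1 the count for the whole list was 7 higher and 3 lower, and it was 2 lower without Vector 1 and 3 lower without LINC00665 2 or without LINC00665 3.

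Among the receptors of the ligands, 9 of 12 had too few counts to be tested. Those of them named here, all outside the rule for named genes, were chosen after their values were seen. CTLA4, CD28 and ICOS had 0 counts in every library, and PDCD1, which encodes PD-1, had 6 counts under the LINC00665 label and 0 under the Vector label. Of the 3 tested, SIRPA, the phagocyte receptor of CD47, passed the threshold and fell to 27.1 ± 4.32 CPM under the LINC00665 label, against 287 ± 57.2 CPM under the Vector label (log2 fold change -3.41, SE 0.22, edgeR adjusted p = 4.1e-06). RGMB, which binds PD-L2, was at 64.6 ± 2.19 and 103 ± 54.1 CPM in the same order and did not pass (adjusted p = 0.12), except without Vector 2 (0.0043). SIRPG, also a CD47 receptor, was at 0.785 and 0.557 CPM and did not pass (adjusted p = 0.39). The median log2 fold change of these 3 tested receptors was -0.67, and it was -0.19 without Vector 3.

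In a list of other genes that act on immune receptors, of the B7, butyrophilin, nectin, galectin and TNF families and with CEACAM1, CADM1, CD24, CD200 and the receptor TNFRSF14, 10 of 22 tested were higher and 8 lower (34.2% and 29.3% over all genes), with a median log2 fold change of 0.30. CEACAM1, a homophilic inhibitory adhesion molecule, rose to 22.1 ± 4.49 CPM under the LINC00665 label, against a total of 5 counts under the Vector label. NECTIN4, CADM1 and CD200, also higher and named after their values were seen, had 1, 0 and 0 counts under the Vector label. Like CEACAM1, they passed the filter on low counts only by their level under the LINC00665 label, which ties their direction to it. The PVR relative NECTIN1 rose to 157 ± 21.2 CPM, against 6.46 ± 1.65 CPM under the Vector label (log2 fold change 4.61, SE 0.24, edgeR adjusted p = 1.4e-06). LGALS3, or galectin-3, rose to 49.9 ± 9.17 CPM, against 3.56 ± 0.994 CPM. CD70, the ligand of the costimulator CD27, fell to 0.452 ± 0.0946 CPM, against 25.8 ± 5.18 CPM under the Vector label (log2 fold change -5.81, SE 0.28, adjusted p = 1e-06). Without LINC00665 2, and likewise without LINC00665 3, 5 genes of this list were lower. The median was 0.09 without LINC00665 2 and 0.60 without Vector 2.

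MHC class I genes, which present peptides to the T cells that these ligands act on, were higher in 10 of 19 cases and lower in 1, beside 34.2% and 29.3% over all genes tested. The median log2 fold change was 0.68. B2M, the shared light chain, rose to 1240 ± 310 CPM under the LINC00665 label, against 236 ± 23.5 CPM under the Vector label. The heavy chains HLA-B and HLA-C rose to 277 ± 66.4 and 124 ± 23.9 CPM, against 22 ± 1.61 and 30 ± 3.95 CPM, with edgeR adjusted p of 2.9e-06 and 4e-05. Their values are uncertain because class I genes share sequence. ERAP2, a peptide-trimming protease, rose to 26.5 ± 3.27 CPM, against 2.89 ± 0.492 CPM. The gene that fell, named after its values were seen, was TAPBP, or tapasin, which loads peptides, at 75.4 ± 13.2 CPM under the LINC00665 label and 268 ± 36.1 CPM under the Vector label (adjusted p = 5.8e-05).

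**Figure D5:**
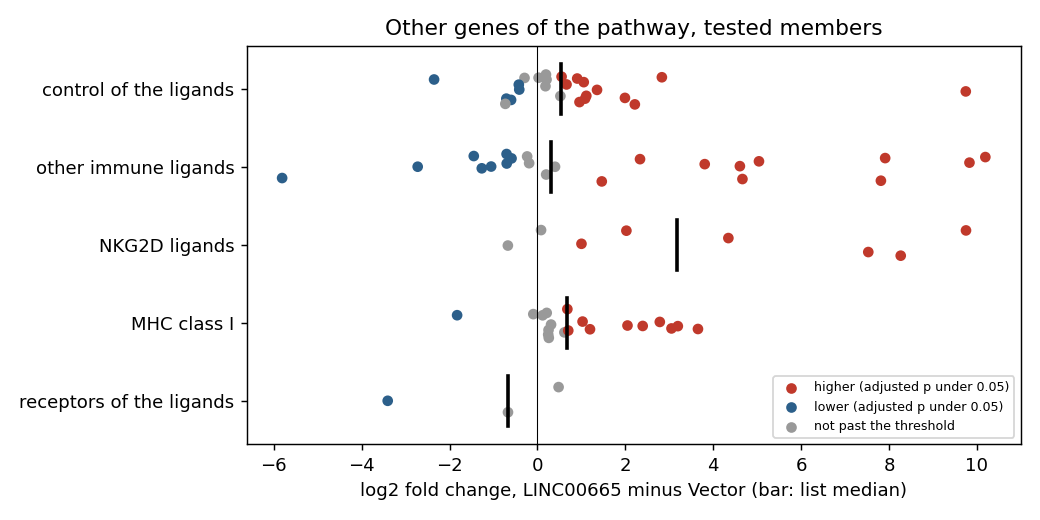
Log2 fold change (LINC00665 minus Vector) of tested genes in 5 groups around the ligands: red and blue points passed an adjusted p of 0.05 as higher and lower, grey points did not, and bars are medians. The medians are 0.54 for control of the ligands, 0.30 for other immune ligands, 3.18 for NKG2D ligands, 0.68 for MHC class I and -0.67 for the 3 tested receptors, against 0.03 for all genes tested; the points of CD200, CADM1 and RAET1E, with 0 counts under the Vector label, are no bounds.

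By the distance between profiles of log2(CPM + 0.5) centred over the 6 libraries, the genes nearest to CD274 were KRT6B, RAC2 and CXCL5, with root mean square differences of 0.274, 0.282 and 0.29. Those nearest to CD47 were AIG1, EMC3 and ZNF416 (0.0603 to 0.066), and ZBTB21 (0.0531) and P4HA3 (0.0603) were near to PVR. For NECTIN2 they were ABAT, VEGFB and TMEM138, for LGALS9 KYNU, HOXA11 and EFEMP1, and for PDCD1LG2 NSUN7, ARL14 and ADD2. CD276 lay nearest to CDK16, NCKAP5L and ZNF627, and ICOSLG to SLC16A6, TWNK and IL1RAP. These distances cover both labels, so they include the difference between them, and are a description. Adding 0.5 CPM compresses values near 0, so genes with unlike fitted log2 fold changes can lie near each other. KRT6B and CXCL5 had 9.95 and 10.4, beside 7.92 for CD274.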

How the data were processed

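Per the file headers, the authors deposited unnormalised expected counts of 20289 genes in 1 table. The same deposited table holds FPKM, normalised by the authors for length and depth, per the file headers. HISAT2 2.0.4 and hg38 are named without a role in the submitters' processing notes. Counting tool, annotation and strandedness: not given in the sources used here. GENCODE v29 held 20171 of the identifiers.

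Expected counts were rounded, filtered with filterByExpr (minimum count 10), scaled by TMM and tested with edgeR 4.0.16 (glmQLFit, glmQLFTest; R 4.3.3), with Benjamini-Hochberg adjustment over 13552 genes. CPM use the TMM-scaled library sizes. SE was computed from the fold change and F statistic. Alternatives used DESeq2 1.42.0 and limma 3.58.1. Figures were drawn with matplotlib 3.10.9.

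Members and lists were chosen with earlier results of these data known. Named genes were the members, the 4 smallest p of each list, JAK2, the LGALS9 copies and the 3 nearest profiles; others are marked as chosen after their values were seen, or are copies and markers named with a list, and some results are not reported here. Simulated data held the 13552 genes of this comparison, 200 of them changed. The test recovered 40% of 2-fold and 90% of 4-fold changes there, and 8.45% of calls were false. In the libraries themselves 63.5% of genes were called, so these shares may not carry over. The detection limit was 3 counts over 3 libraries. Limits and intervals cover counting error only. Ratios set against 3 counts leave out the counting error of the count under the LINC00665 label. The labels name independent experiments, not separate cultures, so p-values measure the spread between these libraries. Chi-square per degree of freedom between libraries of one label was 9.85 to 116, so none was counted as a duplicate.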

Additional observations from a re-analysis of the deposited data

How the results depend on the processing

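The 6 ligands that were higher kept their direction and stayed past the threshold in all 15 refits, and 0 ligands were lower in any. The count was 6 to 7 when single libraries were left out, 6 with the replicate block, 7 without a filter on low counts and 5 with a log2 fold change of at least 1, which NECTIN2 did not reach. CD274, PDCD1LG2 and LGALS9 passed the filter on low counts only by their level under the LINC00665 label. Their direction in refits with a filter is tied to it and adds no support. Without single libraries ICOSLG ran from -0.47 to 0.12, changing sign without Vector replicate 3, and CD276 passed without Vector replicate 2. Adding 1 to FPKM lowered the log2 fold changes of CD274, PDCD1LG2 and LGALS9 to 5.33, 1.75 and 4.43, by construction for low values. Total-count scaling moved the median of all genes to -0.13, from 0.03, and turned no ligand; over all genes, adding 1 to FPKM gave 4257 higher and 4402 lower. Leaving out single libraries gave 4142 to 5033 genes higher and 3275 to 4225 lower over all genes, and for lower genes 2 to 6 among controls of the ligands, 5 to 8 among other ligands, 1 to 2 among receptors and 0 to 1 among NKG2D ligands. Controls of the ligands had 7 to 12 higher. With the replicate block 2 of these controls were lower. Numbers did not pair the libraries (correlations of deviations 0.216, -0.16 and -0.198 for numbers 1 to 3). Between unlike numbers it was 0.221 for LINC00665 3 with Vector 2 and 0.248 for LINC00665 2 with Vector 3. The other unlike pairs ran from -0.138 to -0.0248. A block on pairs of unlike number was not fitted. At an adjusted p of 0.01, 7 controls were higher and 2 lower, and 4 other ligands were lower. With a log2 fold change of at least 1, 2156 genes over all, 5 other ligands and 1 control were lower. Without a filter 1 receptor was higher. The cause of these changes was not tested. Depth limits PDCD1LG2, LGALS9 and VTCN1, with 2, 8 and 0 counts under the Vector label.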

Other observations

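Ligands of NKG2D, an activating receptor of NK cells and some T cells, were higher under the LINC00665 label in 6 of 8 cases and lower in 0 (1 without Vector 3) by edgeR's quasi-likelihood test, against 34.2% of all genes higher. ULBP1 rose to 20.3 ± 0.899 CPM under the LINC00665 label, against 4.98 ± 1.38 CPM under the Vector label (SD, n = 3 each; log2 fold change 2.02, SE 0.23, adjusted p = 1e-04). RAET1L stood at 20.1 ± 1.7 CPM under the LINC00665 label against a total of 1 count under the Vector label, a ratio of 1180 (95% counting interval 211 to 46500). RAET1G stood at 12.4 ± 1.82 CPM against 2 counts, a ratio of 362 (99.7 to 2990). RAET1E stood at 1.17 ± 0.256 CPM against 0 counts, a ratio of 22.9 when set against 3 counts over the group. These 3 passed the filter on low counts by their level under the LINC00665 label, which ties their direction to it, and the family's genes are similar in sequence, so reads could be split among them. MICA and MICB, stress-induced ligands of the same receptor named after their values were seen, did not pass, at 33.8 ± 3.51 and 68.2 ± 24.8 CPM under the LINC00665 label and at 53.8 ± 32.2 and 64.4 ± 49.7 CPM under the Vector label (adjusted p = 0.21 and 0.93). The median log2 fold change of the 8 genes was 3.18, and it was 2.02 among genes at 1 CPM or more in at least 3 libraries.

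Fibroblast markers summed to 245 to 273 CPM under the LINC00665 label and to 2.07 to 4.1 CPM under the Vector label. Endothelial markers summed to 20.1 to 23.3 CPM and 0.746 to 2.48 CPM in the same order. Most of the fibroblast sum under the LINC00665 label came from THY1 and COL1A1, at 165 and 71.3 CPM. Of 6 tested fibroblast markers 5 were higher, against 34.2% of all genes tested. COL3A1 did not pass (edgeR adjusted p = 0.12), and 4 were not tested. Markers with few counts under the Vector label, such as THY1 with 3, passed the filter on low counts only by their level under the LINC00665 label. That ties their direction to it. THY1, COL1A1 and COL3A1 were named after their values were seen. Of the 10 fibroblast markers 0 and 4 had no counts under the LINC00665 and the Vector label, and of the 10 endothelial markers 2 and 6. The part of these differences in the ligands' levels was not tested.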
